A study of Homo sapiens with 8 samples.

Results

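The genes described here are 10 members of the NRF2 antioxidant pathway, chosen by name and placed with the GENCODE 44 annotation of GRCh38 (hg38). They are NFE2L2, KEAP1, GCLC, GCLM, SLC7A11, TXNRD1, SRXN1, NQO1, HMOX1 and OSGIN1, 10 of 20033 protein-coding genes on the autosomes, X and Y. Their regions were the ATAC-seq peaks whose summit, the position of highest signal, lay in the gene or within 20 kb of it. This gave 59 of the 60474 peaks on these chromosomes, of 60628 in the deposited list. A summit within 1000 bp of the canonical transcription start site (TSS) was counted as a TSS peak, any other summit inside the gene as a gene-body peak and the rest as flank peaks. There were 12 TSS, 24 gene-body and 23 flank peaks. A peak was counted as at a start when the start lay within 1000 bp of its summit. Counted starts were those of all transcripts of the member and the canonical start of each other gene.

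The peaks came from 1 ATAC-seq library of HepG2 cells, fixed with 0.1% formaldehyde (FA) and then cryopreserved. HepG2 is a liver cancer cell line, labelled with a WT genotype, and ATAC-seq marks accessible DNA, where the enzyme Tn5 can cut and leave adapters. The study made 8 such bulk libraries, at 0.1, 0.5, 1.0 or 5.0% FA with cryopreservation or flash freezing, to ask how preservation affects data quality, and 7 of them were not analysed here. There was no replicate and no library with NRF2 activated or removed, so every value below describes 1 library and no test between conditions was possible.

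NRF2, the product of NFE2L2, is a transcription factor that KEAP1 holds in the cytoplasm and hands to a ubiquitin ligase for destruction. Oxidants and electrophiles modify KEAP1, NRF2 then accumulates, pairs with a small MAF protein and binds the antioxidant response element (ARE), whose core reads TGACNNNGC. Its targets make glutathione, reduce thioredoxin and peroxiredoxins, detoxify quinones and break down heme, tasks with a large share in liver cells. The ARE core resembles the AP-1 site (searched here as TGANTCA), and both can occupy the same bases when the core reads TGACTCAGC.

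Of the 59 peaks, 10 (16.9%) held an ARE core on either strand within 100 bp of the summit, against 11.2% of all peaks. The exact binomial interval of the members' share was 8.44 to 29.0%. It treats the 59 peaks as independent draws, which peaks of the same chosen gene are not, so it is no test. The 10 peaks belonged to 6 of the members and held 13 cores. From the 12 cores at the peaks of highest fold enrichment, 9 are printed. They are matches to the letters of the core, and binding of NRF2 to them was not measured. Each name gives the distance of the core from the TSS in bp, with positive values running into the gene, then the position of the core on hg38 and its strand. Capitals mark the core, and 10 bases are shown to either side.
SLC7A11 +42634 (chr4:138199711-138199719, minus): tgcaagtctgTGACTAGGCagggcaggta
KEAP1 +558 (chr19:10502794-10502802, plus): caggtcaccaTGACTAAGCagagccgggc
KEAP1 +535 (chr19:10502817-10502825, minus): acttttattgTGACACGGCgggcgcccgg
NFE2L2 -133472 (chr2:177398195-177398203, plus): tttgcacaagTGACCTGGCttaaaactta
TXNRD1 +71155 (chr12:104286930-104286938, minus): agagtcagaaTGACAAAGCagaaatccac
GCLC -3107 (chr6:53548204-53548212, plus): ccccgccacgTGACTGCGCgggcccgcct
TXNRD1 -4 (chr12:104215771-104215779, minus): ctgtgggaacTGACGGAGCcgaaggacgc
TXNRD1 -95 (chr12:104215680-104215688, plus): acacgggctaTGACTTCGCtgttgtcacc
NFE2L2 +1110 (chr2:177263613-177263621, minus): ttggcttccgTGACAGCGCtcggttggcc
The core lay within 10 bp of the summit in 3 of these, at KEAP1 +558 (1 bp), TXNRD1 +71155 (2 bp) and SLC7A11 +42634 (7 bp). The 19 middle bases of each of these 9 sites occurred once in hg38.

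All 10 members had a TSS peak (95% exact binomial interval from 69.2%), against 61.0% of all protein-coding genes. The members were chosen by name and not drawn at random, so this interval is no test of the difference. The fold enrichment at a summit is the caller's ratio of the signal there to the local background. It was between 11.2 and 23.1 at the strongest TSS peak of each member, with a median of 15.2, against a median of 17.9 (quartiles 12.9 and 22.8) over all 12229 protein-coding genes that had such a peak. The number of fragments stacked at each summit, solved from the deposited fold and p-value, gave another ranking. Its median was 53 for the members and 44 (quartiles 27 and 66) for all of these genes, and the median local background was 1.95 fragments for the members and 1.42 for all. Thus 4 members lay above the median of all genes by fold and 7 by fragments. The sources used here do not say whether the caller stacked whole fragments or extended reads, so a fragment is 1 unit of that stack.

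**Figure D1:**
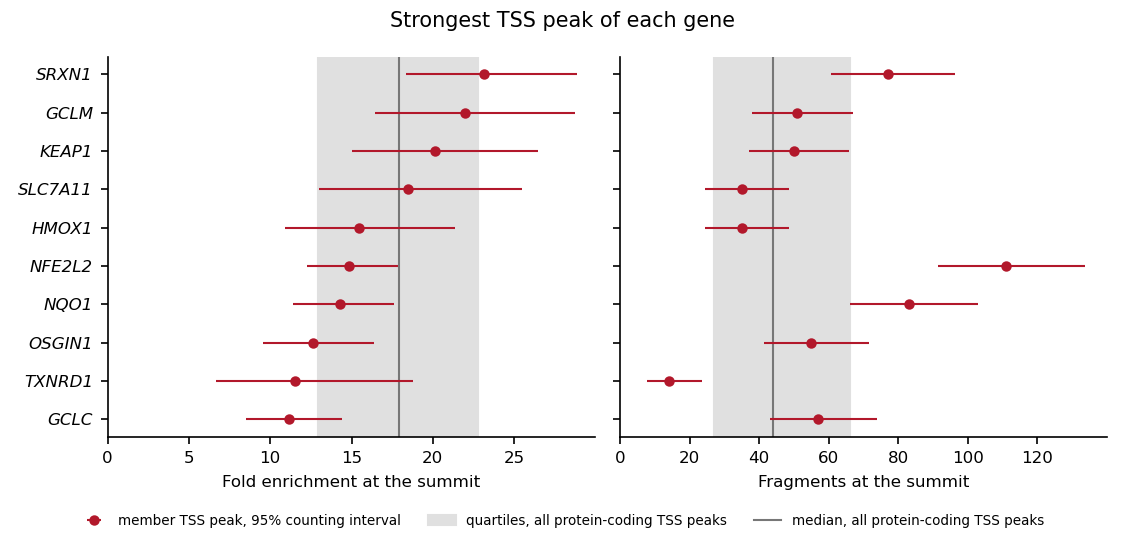
Fold enrichment (left) and fragments at the summit (right) of the strongest TSS peak of the 10 members; bars are 95% Poisson counting intervals, and the grey band and line are the quartiles and median over all protein-coding TSS peaks. SRXN1 leads by fold (23.1) and NFE2L2 by fragments (111), while TXNRD1 has the fewest fragments (14).

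By fold, the order of the TSS peaks was SRXN1 (23.1), GCLM (21.95), KEAP1 (20.2), SLC7A11 (18.5), HMOX1 (15.5), NFE2L2 (14.9), NQO1 (14.3), OSGIN1 (12.7), TXNRD1 (11.5) and GCLC (11.2). The 95% counting intervals overlapped for each of the 9 pairs of neighbours in this order, and did not overlap for 7 of all 45 pairs. By fragments, 20 of the 45 pairs had intervals that did not overlap. These intervals cover counting error only. HepG2 has extra copies of some chromosomes, and among the members' chromosomes the median number of fragments at TSS peaks was between 34.5 on the HMOX1 chromosome 22 and 70 on the SRXN1 chromosome 20. Copy number was not measured here, and its part in these values was not tested. Set against the genes of the same chromosome, 8 members lay above the median, HMOX1 by 35 fragments against 34.5.

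The labelled cell type was checked against its markers. All 8 hepatocyte markers examined had a TSS peak, with APOB at a fold of 15.6, SERPINA1 at 21.7 and HNF4A at 18.3. None of the 4 markers of other cells (PTPRC, CD3E, COL1A1, PECAM1) had one, although each of the 4 had at least 1 summit within 20 kb.

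**Figure D2:**
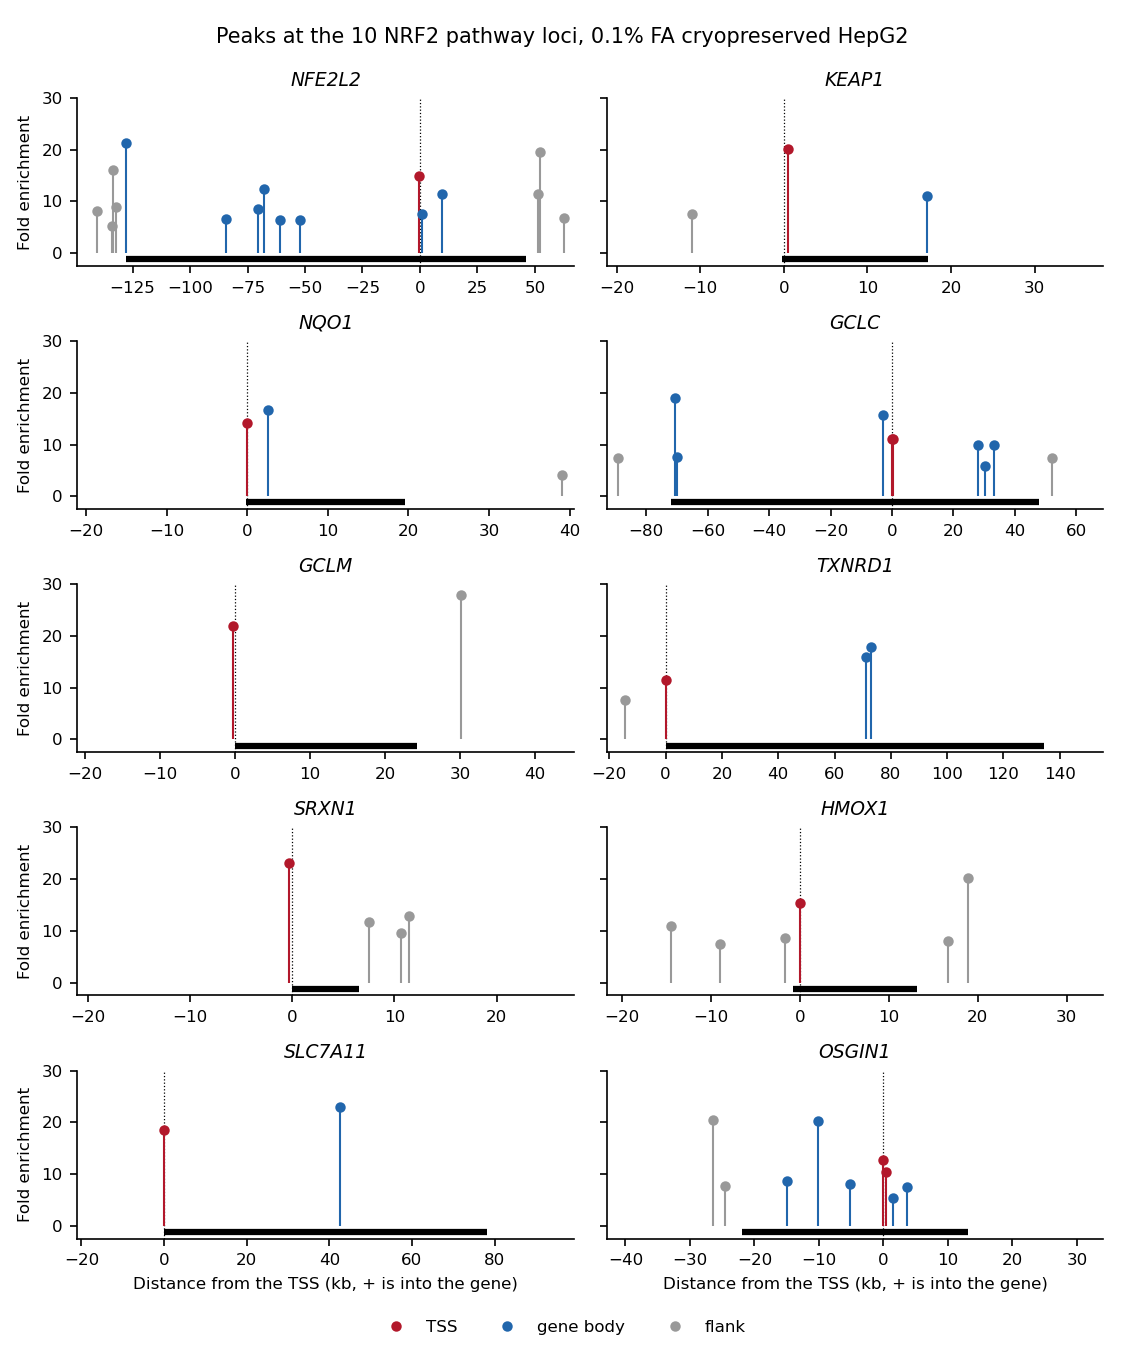
Every peak at the 10 loci, by the distance of its summit from the TSS (x axis, kb, positive into the gene) and its fold enrichment (y axis); red marks TSS, blue gene-body and grey flank peaks, and the black bar is the gene. NFE2L2 has 16 peaks, and GCLM and SLC7A11 have 2 each.

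The regulator gene NFE2L2 (chr2:177218667-177392756, minus strand) had the most peaks of the members, 16, more than at 98.9% of protein-coding genes. Its locus is also long, and its 7.47 peaks per 100 kb were a higher density than that of 75.7% of genes. The TSS peak (chr2:177264678-177265341, summit 417 bp upstream) had 111 fragments (interval 91.3 to 134) over a background of 6.54 and a fold of 14.9. At 664 bp it was wider than 98.3% of the TSS peaks of protein-coding genes. More fragments were stacked there than at 96.3% of all TSS peaks, but than at 87.9% on chromosome 2, where the median was 62 against 44 in all. A gene-body peak at +1093 bp, within 1000 bp of the starts of 18 annotated NFE2L2 transcripts, had 57 fragments and a fold of 7.66. It held an ARE core 17 bp from its summit. The high background of this pair, 6.54 and 6.57 fragments, was the highest of the 59 peaks.

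Upstream of its canonical start, NFE2L2 is annotated as a long gene that reaches up to its neighbour AGPS, a gene of ether lipid synthesis. The peak there, at -127999 bp, had the highest fold of the locus (21.3, 54 fragments). Within 1000 bp of its summit were the starts of AGPS and of 21 NFE2L2 transcripts, so the genes cannot be told apart here. Between this peak and the main start lay 5 weaker gene-body peaks with 7 to 18 fragments and folds of 6.34 to 12.5. Among the 7 flank peaks, those at +52084 and +51439 bp (97 and 56 fragments, folds 19.5 and 11.4) lay at the start of HNRNPA3, which encodes an RNA-binding protein, and near that of the microRNA gene MIR4444-1. A flank peak at -133380 bp lay beyond the AGPS start as seen from NFE2L2, at no counted start, with 40 fragments and a fold of 16.2. An ARE core lay 92 bp from its summit, and which gene this peak serves was not tested. The other flank peaks, at -140550, -133779, -132148 and +62776 bp, had 9, 12, 30 and 9 fragments and folds of 5.19 to 8.89. The remaining gene-body peak, at +9632 bp near the start of the microRNA gene MIR3128, had 23 fragments and a fold of 11.5.

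KEAP1 (chr19:10486125-10503558, minus strand) encodes the sensor that keeps NRF2 low. It had 3 peaks. The TSS peak (chr19:10502694-10502970) had a fold of 20.2 (interval 15.1 to 26.4) and 50 fragments, and its summit lay 557 bp into the gene, in an intron. Its 2 ARE cores lay 1 and 22 bp from the summit on opposite strands. A summit in exon 6 at +17190 bp had 15 fragments and a fold of 11.1, and a flank peak at -10958 bp had 9 fragments and a fold of 7.55. Moving the window to 500 bp leaves KEAP1 without a TSS peak and the 9 other members with one.

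Of the glutathione genes, GCLC (chr6:53497341-53616970, minus strand) encodes the catalytic subunit of glutamate-cysteine ligase, the rate-limiting enzyme of glutathione synthesis. Its 2 TSS summits, at -16 and +309 bp, had 57 fragments each and folds of 11.2 and 11.1, the lowest among the strongest TSS peaks of the members. A peak 3047 bp upstream (chr6:53547984-53548335), at another annotated start of GCLC, had 80 fragments (interval 63.4 to 99.6) and a fold of 15.8. Both its intervals overlapped those of the TSS peak, where the fragments ran from 43.2 to 73.9. Human GCLC is known for a working ARE in its distal promoter, so the cores in this peak are shown together. The second was chosen after its position was seen, since it lay 105 bp from the summit and outside the window of 100 bp.
GCLC -3107 (chr6:53548204-53548212, plus): ccccgccacgTGACTGCGCgggcccgcct
GCLC -3152 (chr6:53548249-53548257, plus): cgcctccccgTGACTCAGCgctttgtgcg
The core at -3152 reads TGACTCAGC, so it holds an AP-1 site. Only 575 of all peaks (0.951%) held this sequence anywhere in the peak.

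Further out, the GCLC peak at -70720 bp, near the start of the non-coding RNA LINC01564, had the highest fold of the locus, 19.1 with 52 fragments. A match to the AP-1 pattern TGANTCA lay 28 bp from its summit and read TGAATCA. Among the 3 intron peaks between +27915 and +33087 bp the fragments were 9 to 14 and the folds 5.92 to 9.92. The peaks at -89160, -69786 and +51972 bp had 9, 20 and 9 fragments and folds of 7.38 to 7.58. AP-1 sites also lay within 100 bp of the summits at +27915 and +51972 bp. In all, 6 of the 59 member peaks (10.2%) held a match to TGANTCA within 100 bp, against 9.27% of all peaks. At GCLC lay 3 of the 6, the TGAATCA match among them.

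GCLM (chr1:93885199-93909456, minus strand) encodes the modifier subunit of the same ligase. Its TSS peak (chr1:93909422-93909781) had a fold of 21.95 (interval 16.5 to 28.7) and 51 fragments. Human GCLM is known for an ARE close to its start, and a core lay 30 bp upstream of it, inside the peak but 166 bp from the summit. It is shown because the window around the summit missed it, and so was chosen after its position was seen.
GCLM -30 (chr1:93909456-93909464, plus): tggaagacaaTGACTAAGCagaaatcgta
The core TGACTAAGC has the same letters as that of KEAP1 +558. The only other peak of the locus, at +30197 bp, had the highest fold of the 59 (27.8, 53 fragments), but lay at the start of DNTTIP2, a ribosome biogenesis gene. GCLM thus had no peak away from every counted start, alone among the members.

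SLC7A11 (chr4:138164097-138242349, minus strand) encodes the cystine importer that supplies glutathione synthesis, and is known as a target of both NRF2 and the amino acid stress factor ATF4. It had 2 peaks. The TSS peak (chr4:138242265-138242632) had a fold of 18.5 (interval 13.0 to 25.5) and 35 fragments. Within 500 bp of the TSS the sequence was 41.9% G+C, and only 0.916% of the 12229 genes had less. The peak held 2 amino acid response elements (TTGCATCA), the sites of ATF4 with a CEBP partner, 73 and 92 bp upstream of the TSS and on opposite strands. Of the 12229 TSS peaks of protein-coding genes, this was the only 1 with at least 2 of them within 100 bp of the summit, and 8 of all peaks had as many. In total 2 of the 59 member peaks held such an element, both at SLC7A11, against 1.03% of all peaks.

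The other SLC7A11 peak (chr4:138199561-138199906), in an intron 42641 bp into the gene, exceeded the TSS peak, with a fold of 22.97 (interval 16.9 to 30.6) and 45 fragments, although the intervals overlapped. It had the highest fold of the 33 member peaks that lay at no counted start, whose median was 8.13 with 15 fragments. An amino acid response element and an ARE core lay next to each other at its summit. They are shown in the direction of the gene, with the element, read as TGATGCAA on this strand, and the core in capitals. A second ARE core in this peak, 106 bp from the summit and outside the window of 100 bp, is not shown.
SLC7A11 intron (chr4:138199678-138199748, minus): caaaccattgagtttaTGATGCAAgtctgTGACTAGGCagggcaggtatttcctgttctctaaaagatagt

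Of the thioredoxin genes, TXNRD1 (chr12:104215779-104350307, plus strand) encodes the cytosolic thioredoxin reductase and is annotated with several alternative starts. Its canonical start had the weakest TSS peak of the members, 14 fragments (interval 7.65 to 23.5) in 138 bp, with a fold of 11.5. Only 7.98% of the TSS peaks of protein-coding genes had fewer fragments. Downstream starts had more fragments. The peak at +71157 bp (chr12:104286830-104287026) lay within 1000 bp of the starts of 13 TXNRD1 transcripts. It had 49 fragments (interval 36.3 to 64.8) and a fold of 15.9. The peak at +73035 bp, with 2 such starts, had 56 fragments (interval 42.3 to 72.7) and a fold of 17.9. The fragment intervals of both lay above that of the canonical start, while the fold intervals overlapped (11.8 to 20.9 and 13.6 to 23.2, against 6.64 to 18.8), over backgrounds of 2.15 and 2.18 fragments downstream and 0.303 at the canonical start. At the canonical start 2 ARE cores were found, 27 and 64 bp from the summit, and 1 at the +71157 peak, 2 bp from its summit. A weak flank peak at -14419 bp had 8 fragments. With the start of any transcript in place of the canonical one, the median TSS fold of the members was 18.2. The median over all genes given above used canonical starts only.

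SRXN1 (chr20:646615-653200, minus strand) encodes sulfiredoxin, which repairs over-oxidised peroxiredoxins. Its TSS peak (chr20:653202-653591, summit 270 bp upstream) had the highest TSS fold of the members, 23.1 (interval 18.3 to 28.8), with 77 fragments. This was more than at 83.9% of all TSS peaks, but than at 57.4% on chromosome 20, where the median was 70. The summit sat on an AP-1 site, 1 bp from its centre, and no exact match to the ARE core TGACNNNGC lay in the peak. In the direction of the gene the AP-1 site runs on as TGAGTCAGC, which differs from that core at 1 base. The bases around the summit are shown in the direction of the gene, with the AP-1 site in capitals.
SRXN1 TSS summit (chr20:653430-653510, minus): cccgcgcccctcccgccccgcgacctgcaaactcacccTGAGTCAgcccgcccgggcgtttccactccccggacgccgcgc
The AP-1 site was uncommon at starts: 2.21% of the strongest TSS peaks of protein-coding genes held it within 100 bp of the summit, and so did 2 of the 10 members, SRXN1 and OSGIN1. The 3 flank peaks of SRXN1, at +7564 to +11406 bp, had 34 to 46 fragments and folds of 9.57 to 12.9.

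NQO1 (chr16:69706996-69726668, minus strand) encodes a quinone reductase and is known for an ARE in its promoter. Its TSS peak (chr16:69726386-69726749) had its summit 2 bp from the TSS and near the start of the divergent RNA gene NQO1-DT, with 83 fragments (interval 66.1 to 103) over a background of 4.89 and a fold of 14.3. An intron peak at +2521 bp (chr16:69723762-69724185) was higher, with 97 fragments (interval 78.7 to 118) and a fold of 16.8, although the intervals overlapped. These 97 fragments were the most at any member peak away from every counted start, and more than at 98.5% of all peaks. None of the motifs searched apart from CCAAT and GC boxes was found at the NQO1 summits. A flank peak at +39060 bp had 4 fragments and a fold of 4.14, the lowest of the 59. The ARE core of the promoter, at -451 bp, lay outside every peak, 258 bp from the nearest. It is shown for this reason and was chosen after its position was seen.
NQO1 -451 (chr16:69727007-69727015, minus): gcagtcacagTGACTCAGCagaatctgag
No peak over this core means that the caller reported none in 1 library, at a depth not given in the sources used here.

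HMOX1 (chr22:35380361-35394214, plus strand) encodes heme oxygenase 1, which breaks down heme and is held off by the repressor BACH1 at the same elements that NRF2 uses. Its 6 peaks were 11.1 per 100 kb, denser than for 89.8% of genes. The TSS peak had a fold of 15.5 (interval 10.9 to 21.4) and 35 fragments. The peak at +18921 bp, with the highest fold of the locus (20.3, 51 fragments), lay at the start of MCM5, a subunit of the replicative helicase. A weak peak 8935 bp upstream, near the start of a non-coding gene, had 11 fragments (interval 5.49 to 19.7) and a fold of 7.55. The other HMOX1 flank peaks, at -14467, -1686 and +16684 bp, had 16, 19 and 20 fragments and folds of 8.05 to 11.02.

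OSGIN1 (chr16:83931311-83966332, plus strand) encodes an oxidative stress-induced growth inhibitor and had 9 peaks, per kb denser than for 92.0% of genes. Its 2 TSS summits, at -99 and +457 bp, had 55 and 45 fragments and folds of 12.7 and 10.4. GCLC and OSGIN1 were the members with 2 TSS summits, a feature of 23.3% of the 12229 genes. The first summit had an AP-1 site 5 bp from it. It is shown here in capitals because no exact ARE core was found within 100 bp of any OSGIN1 summit. On the other strand the site runs on as TGAGTCAGC, the same bases as at the SRXN1 summit.
OSGIN1 TSS summit (chr16:83953130-83953159, plus): cacgggcccctgcTGACTCAcgcttatgaa
The highest folds of the locus lay upstream, 20.4 at -26370 bp (39 fragments) and 20.3 at -10157 bp (70 fragments), each at no counted start. The 5 remaining peaks had 14 to 28 fragments and folds of 5.34 to 8.68.

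**Figure D3:**
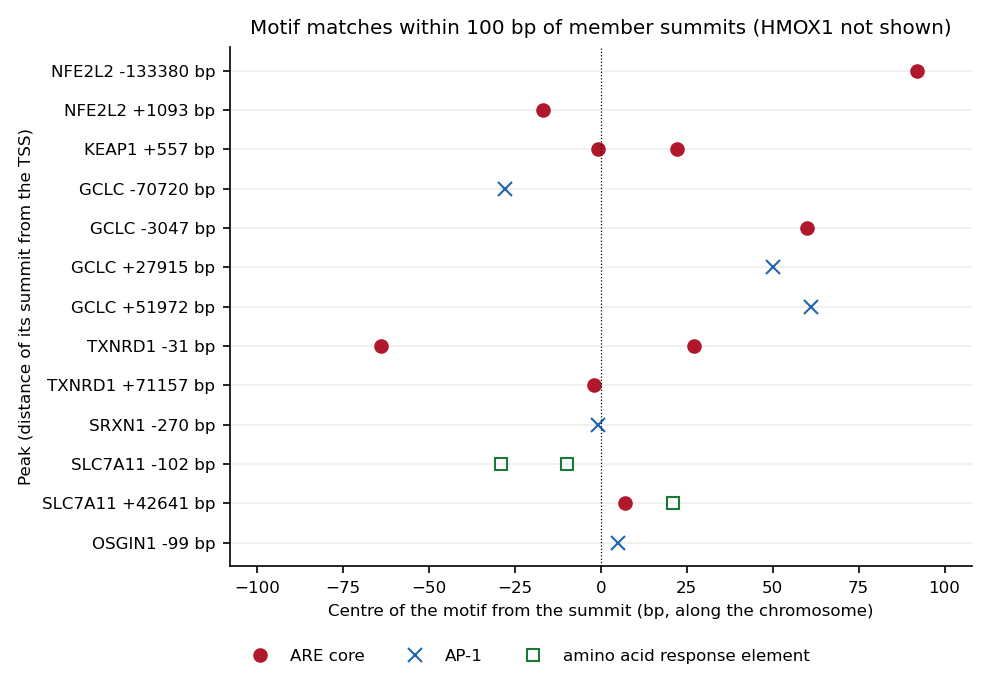
Centres of ARE cores (red), AP-1 sites (blue crosses) and amino acid response elements (green squares) within 100 bp of the summits of the members other than HMOX1, by distance from the summit along the chromosome (x axis, bp) and by peak (y axis, named by the distance of its summit from the TSS). A site lies within 10 bp of the summit at KEAP1 +557, TXNRD1 +71157, SRXN1 -270, OSGIN1 -99, SLC7A11 -102 and SLC7A11 +42641.

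Within 1000 bp of the canonical TSS, 8 of the 10 members had an ARE core, 12 cores in all. Of these, 5 lay inside a peak, at KEAP1, GCLM and TXNRD1, and 7 outside. Over the 12229 genes, 25.4% of 10073 such cores lay inside a peak, with a core counted once for each gene it is near. Peaks covered 18.6% of these windows at the members. RefSeq promoters (250 bases before to 50 after a start, hg38) were found for 8 of the members, in 11 entries, and not for HMOX1 and SLC7A11. An ARE core was present in 4 of the 11, of GCLM, KEAP1 and TXNRD1, against 13.3% of 35116 promoters.

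The other motifs were searched in the same windows. The CCAAT box (CCAAT) was within 100 bp of 18 member summits (30.5%), against 23.9% of all summits, and the GC box (GGGCGG) of 18, against 25.8%. The E-box (CACGTG) was found at 4 (6.78%), against 4.82%. Sites of FOXA (TGTTTAC), a liver pioneer factor, were at 3 member summits (5.08%), against 7.21%, and the HNF4A sequence CAAAGTCCA was at none, against 1.91%. The ETS motif CCGGAAG was at 3, against 5.09%, the NRF1 motif GCGCNTGCG at 1, against 3.30%, and the CRE (TGACGTCA) at none, against 0.827%. All motifs were searched on both strands.

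**Figure D4:**
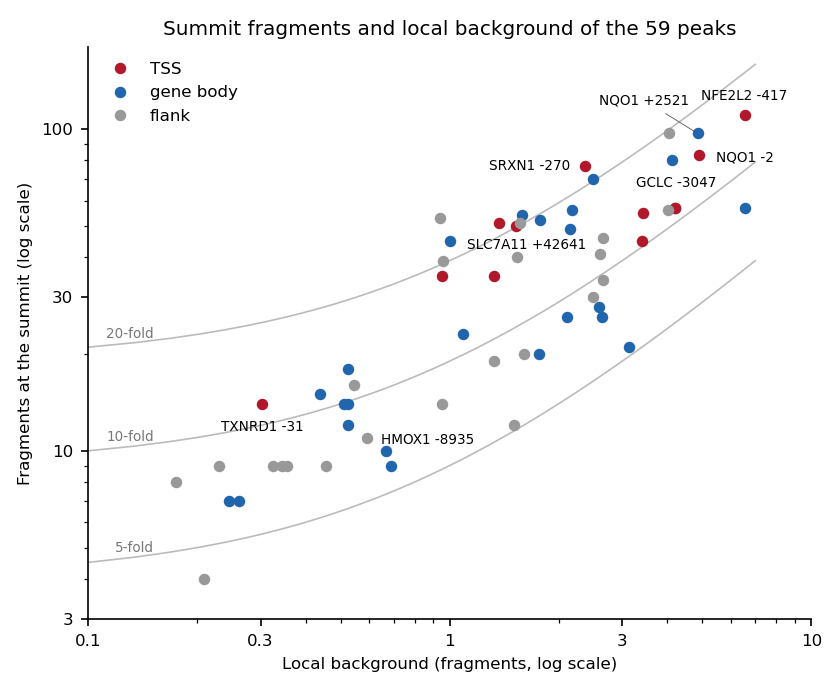
Fragments at the summit (y axis, log scale) against the local background (x axis, fragments, log scale) for the 59 peaks, coloured by class; grey lines mark equal fold, where fold is fragments plus 1 over background plus 1. NFE2L2 -417 has the most fragments (111) and among the highest backgrounds (6.54), while SLC7A11 +42641 reaches a higher fold (22.97) from 45 fragments over a background of 1.00.

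The fold divides the signal by the local background, which was 0.176 to 6.57 fragments at the member peaks. The 15 peaks with at least 2 other peaks within 5 kb had a median background of 2.65 fragments, a median of 41 fragments and a median fold of 11.1. The 23 with 1 such neighbour had medians of 1.77 for the background, 39 for the fragments and 12.5 for the fold, and the 21 with none had 0.454, 11 and 8.13 for the same measures. The part of neighbouring peaks in the order by fold was not tested. By fold, the strongest peak of 8 of the 10 loci was not at the TSS, against 47.2% of the 12229 genes, and by fragments of 7, against 41.7%. At 3 of the 8, NFE2L2, GCLM and HMOX1, the strongest peak by fold lay at the start of another coding gene. In 11 of the 59 peaks the summit lay within 1000 bp of the canonical start of another gene, and in 5 of these the gene was protein-coding. The median number of peaks at a locus was 4 for the members and 4 for all protein-coding genes, and the median density was 5.74 per 100 kb for the members and 4.14 for all.

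The wider pathway was described with 45 other genes in 7 roles. Of these, 39 had a TSS peak (86.7%, exact interval 73.2 to 94.9%), beside 61.0% of all protein-coding genes. This list too was chosen by name, so the interval is no test of the difference. The 39 genes had a median TSS fold of 15.0 and a median of 43 fragments, beside 17.9 and 44 for all protein-coding genes with such a peak. An ARE core lay within 100 bp of the strongest TSS summit in 8 of the 39 (20.5%), and in 2 of the 10 members, beside 11.7% of the 12229 genes.

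All 10 regulators had a TSS peak, with BTRC and CUL3, parts of the ligases that degrade NRF2, at folds of 26.0 and 19.8. NFE2L1, the relative of NFE2L2 that drives proteasome genes, was at 22.1 and the ligase subunit RBX1 at 18.1. Of 8 glutathione genes 6 had one, led by the synthetase gene GSS (26.7, at a start shared with MYH7B), the reductase gene GSR (16.9) and the peroxidase genes GPX2 (16.3) and GPX4 (16.2), and GGT1 and GSTP1 had none. Both thioredoxin genes had one, TXN at 16.3 and PRDX1, a peroxiredoxin gene, at 15.0.

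Of 6 genes of NADPH supply, 5 had a TSS peak, with the pentose phosphate genes TALDO1 at 27.7, PGD at 23.3 and TKT at 11.98 and the isocitrate dehydrogenase gene IDH1 at 12.4, and ME1 had none. The group named carbonyl and quinone reduction held 11 genes, though not all encode such reductases, and UGDH does not. Of these 11, 8 had a TSS peak, led by AKR1B1 (28.0), UGDH (21.1), AKR1B10 (16.3) and CBR1 (15.5), and AKR1C3, CBR3 and PTGR1 had none. The AKR1C genes resemble each other in sequence, to an unequal degree, and the mapping could have split or dropped reads among them. This was not tested. All 4 genes of heme and iron handling had one, the biliverdin reductase genes BLVRB at 21.9 and BLVRA at 11.3 and the ferritin genes FTH1 at 11.03 and FTL at 9.14. So did the 4 efflux pump genes, with ABCC2 at 23.3, ABCC4 at 14.7, ABCC3 at 9.56 and ABCC1 at 5.54, which rested on 10 fragments.

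**Figure D5:**
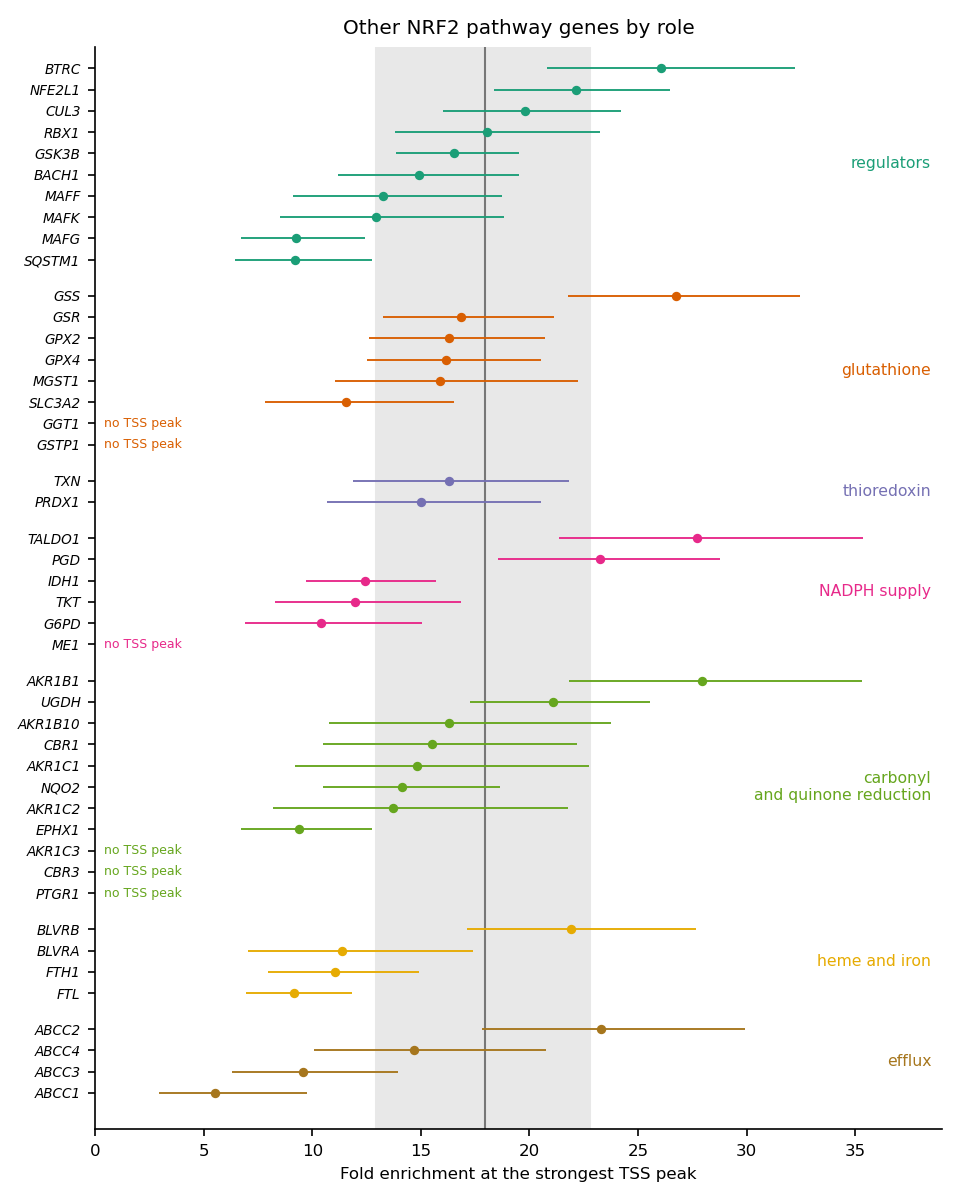
Fold enrichment at the strongest TSS peak (x axis) of the 45 other pathway genes, grouped by role; bars are 95% Poisson counting intervals, and the grey band and line are the quartiles and median over all protein-coding TSS peaks. Folds run from 5.54 at ABCC1 to 28.0 at AKR1B1, and 6 genes have no TSS peak.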

How the data were processed

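HepG2 cells were fixed with 0.1% FA and cryopreserved, permeabilised, and tagged with Tn5. According to the study's methods, the authors used cutadapt for trimming, Bowtie2 within snakePipes for mapping to GRCh38 (mapq > 2), samtools to drop duplicates and MACS2 with standard parameters for peaks. Besides MACS2 and cutadapt, the submitters' processing notes list bcl2fastq and deepTools 3.5.5. The version of MACS2, the depth and whether read ends were shifted to the Tn5 cut are not given in the sources used here. The peak names refer to a filtered file of short alignments, so the peaks may rest on short fragments only, and a shift would move summits by a few bases.

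The deposited list gives a score per peak, equal to the -log10 q-value times 10 without decimals. The fold enrichment deposited by the authors is the ratio of summit signal to local background. The -log10 p and -log10 q deposited are those of the caller's test at the summit, and the last deposited value is the offset of the summit in the peak. They were used to describe and filter peaks only.

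Summits were placed on GENCODE 44. The number n of fragments and the background b were solved from fold = (n + 1)/(b + 1) and the Poisson p-value, and n came within 0.01 of a whole number in 100% of peaks (99.5% within 0.002). Another whole number was possible for 1580 peaks, among the members 1 (NFE2L2 at -60968 bp). Over all peaks n had a median of 17 (range 4 to 653) and at the members it was 4 to 111. Intervals on n are exact Poisson intervals at a 95% level, carried to the fold with b held fixed, and cover counting error only.

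Motifs were searched on both strands within 100 bp of the summit in hg38. Copies of a printed site were counted over its 19 middle bases. Steps were tested on simulated data. Tools were pysam 0.24.0, scipy 1.17.1, numpy 2.4.6, matplotlib 3.10.9 and pandas 2.3.3 under Python 3.11.15. The members, lists and motifs were chosen with earlier results of these data known. All members were named and their peaks given singly or by range, with up to 4 other pathway genes per role of highest TSS fold, those lacking a TSS peak, genes with a symbol starting within 1000 bp of a member summit, and the 12 ARE cores at peaks of highest fold, of which those at HMOX1 are not reported here. Other windows, starts and -log10 q minimums of 5 and 10 were tried. The tolerance of 0.002, the medians per chromosome and 2 settings for the pathway genes (any base of a peak in the window, a -log10 q of at least 5) were added after the data were seen.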

Additional observations from a re-analysis of the deposited data

How the results depend on the processing

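Of 26 alternatives, 23 kept a count within 1.5 times of the reported one or left the median fold as it was. This limit is wide, and the rise from 59 to 86 peaks with a flank of 50 kb also met it. The median TSS fold of the members was 14.9 with a TSS window of 500 bp, which leaves out KEAP1, and 18.2 with the start of any transcript, which adds the downstream TXNRD1 starts, the upstream GCLC start and the AGPS-side starts of NFE2L2. The number of member peaks with an ARE core was 6 within 50 bp of the summit (6.21% of all peaks) and 11 over the whole peak (11.8% of all peaks). With 10 or 50 kb in place of 20 kb the loci held 52 or 86 peaks, and a -log10 q of at least 10 kept 46 of the 59. Between 9 and 10 members and between 38 and 40 of the 45 pathway genes had a TSS peak under the windows, starts, overlap of any base and -log10 q minimums tried. Under the same settings 57.8 to 66.6% of all protein-coding genes had one. There was 1 library, so no replicate could be left out. No paired analysis was possible because there was 1 library. The HMOX1 peak at -8935 bp rests on 11 fragments and the canonical TXNRD1 peak on 14.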
